A study of Mus musculus with 12 samples.

Results

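Macrophages of an injured lung secrete growth factors that act on the fibroblasts and epithelial cells around them. The transcripts of 10 such genes, chosen by name, were followed here out of the 52636 genes counted: Pdgfa, Pdgfb, Pdgfc, Igf1, Vegfa, Tgfb1, Tgfbi, Areg, Hbegf and Osm. Each symbol matched 1 protein-coding gene, and all 10 passed the filter on low counts. The data are gene counts from bulk RNA sequencing of mouse lung Cx3cr1+ macrophages, with 4 libraries in each of 3 groups. The first group was bleomycin-treated and labelled with an IL4Ra deletion (bleomycin KO), the second was bleomycin-treated and labelled wild type for IL4Ra (bleomycin WT), and the third was saline-treated and wild type (saline WT). Bleomycin is a drug that injures the lung and is used to bring on fibrosis in mice, and IL4Ra is the chain that receptors for IL-4 and for IL-13 have in common. The labels give no strain, age, time after treatment, deletion method, deleted exons or Cre driver. They do not say that libraries came from separate animals, so p-values measure the spread between libraries, which may be technical. Saline-treated animals with the deletion were not analysed here.

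As background, platelet-derived growth factor (PDGF) chains pair into dimers that make fibroblasts and smooth muscle cells divide and migrate through the receptors PDGFRA and PDGFRB. Transforming growth factor beta 1 (TGF-beta 1, from Tgfb1) is secreted in a latent complex and, once released, drives matrix production by fibroblasts. Amphiregulin (Areg) and heparin-binding EGF-like growth factor (Hbegf) sit in the cell membrane until a sheddase such as ADAM17 cuts them free to act on the EGF receptor of epithelium, and oncostatin M (Osm) acts on stromal and epithelial cells through OSMR and gp130.

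The libraries were unequal. Saline WT 2 held 60598 counts, and the other 11 held 3534193 to 18051113. In saline WT 2 a single count stood for 10.8 CPM (counts relative to library size, which was scaled by TMM), and 3 counts for 32.4 CPM, and 9 of the 10 genes rested on 9 counts or fewer there. The highest Spearman correlation of bleomycin WT 4 with any other library was 0.730, against 0.938 to 0.987 for the other 7 bleomycin libraries. The macrophage markers were present in every group, with a sum over 10 genes of 47750 to 68320 CPM in bleomycin KO, 28970 to 51180 CPM in bleomycin WT and 14920 to 33960 CPM in saline WT. Most of that sum was Lyz2, with 34560 to 55530 CPM in bleomycin KO, 14490 to 39160 CPM in bleomycin WT and 9318 to 28120 CPM in saline WT. Cx3cr1 itself had 86.2 to 121 CPM in bleomycin KO, 7.46 to 113 CPM in bleomycin WT and 98.0 to 940 CPM in saline WT. Bleomycin WT 4 was the lowest of all 12 libraries in Cx3cr1 and, at 273 CPM, in the macrophage growth factor receptor Csf1r. Because saline WT 2 and bleomycin WT 4 stood apart, results are also given for the other 10 libraries. Saline WT 1 is among those 10, though its highest Spearman correlation with any library was 0.658, below the 0.730 of bleomycin WT 4. The same value was 0.498 for saline WT 2, 0.900 for saline WT 3 and 0.865 for saline WT 4. The 10 libraries are therefore not all alike.

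Il4ra, the targeted gene (chr7:125552120-125579474, GRCm38), did not separate the genotypes. It had 474, 277, 235 and 343 CPM in bleomycin KO 1 to 4, 351, 626, 302 and 138 CPM in bleomycin WT 1 to 4, and 111, 32.4, 262 and 302 CPM in saline WT 1 to 4. Between bleomycin KO and bleomycin WT the log2 fold change was -0.09 (95% interval -1.41 to 1.23, edgeR adjusted p = 0.9998). Since the deleted exons are not given and the counts are per gene, the KO label could not be checked from these values, and "bleomycin KO" means the libraries labelled so.

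Across the 10 genes, the bleomycin groups were mostly above saline WT and were not set apart from each other. In bleomycin WT against saline WT, 9 of the 10 had a log2 fold change above 0, with 52.9% of the 16679 genes tested above 0. The 10 genes had a median of 1.62, and all genes tested had one of 0.08. No member passed an adjusted p of 0.05 (edgeR quasi-likelihood test, Benjamini-Hochberg over all genes), and 4 genes of all tested did, all higher (0.0240%). At an unadjusted p under 0.05, 6 members were higher, beside 8.47% of all genes tested. In 6 members (Pdgfa, Pdgfb, Igf1, Tgfbi, Areg and Osm) every bleomycin WT library was above every saline WT library, which held for 4.93% of all genes tested and for 7.03% of those with a mean of at least 10 CPM.

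For bleomycin KO against saline WT, 9 of 10 genes were above 0 (51.7% of all genes tested), with a median of 1.44 for the 10 and 0.04 for all. None of the 10 passed the adjusted threshold, as against 3 of all genes tested (0.0180%), and 4 members had an unadjusted p under 0.05, all higher (2.96% of all genes). In 7 members (those 6 and Pdgfc) the groups were apart with bleomycin KO higher, against 8.17% of all genes tested and 10.9% of those with a mean of at least 10 CPM. Both bleomycin groups were set against the same 4 saline libraries, so these figures are not independent of each other.

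For bleomycin KO against bleomycin WT, 4 of 10 genes were above 0 (49.3% of all genes tested). The groups overlapped in every member, while 0.905% of all genes tested were higher with no overlap and 0.594% lower. With edgeR 0 of 16679 genes passed, higher or lower (0%), and the smallest adjusted p of any gene was 0.934. Igf1 was the only member with an unadjusted p under 0.05 in that fit (0.0312), with bleomycin KO lower (at that threshold 3.69% of all genes tested were lower and 0.186% higher), and it is described below with the single library behind it. DESeq2 called 1 gene of the whole table lower and no member.

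**Figure D1:**
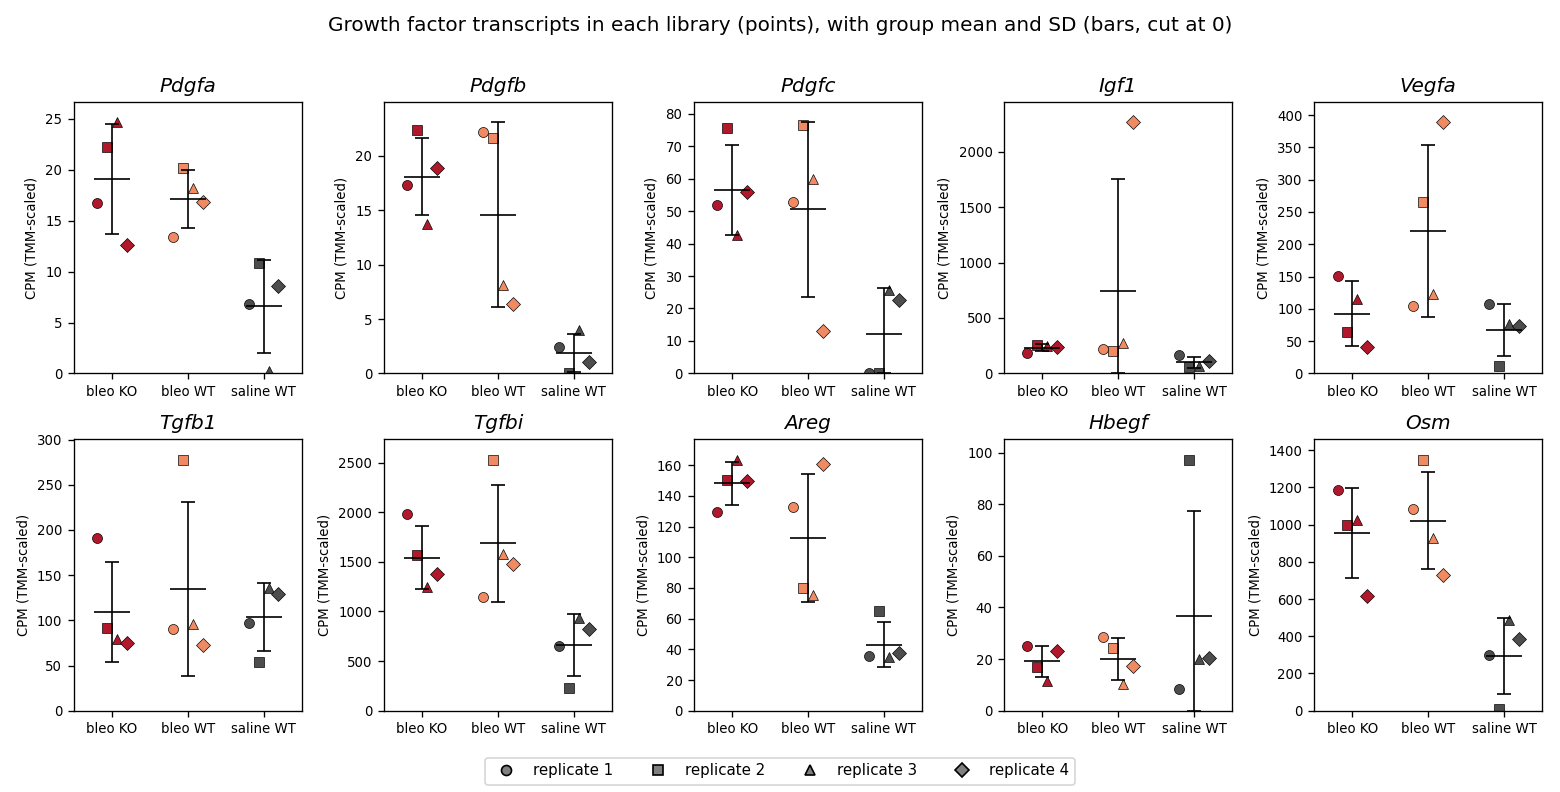
Scaled CPM of the 10 growth factor genes in each of the 12 libraries (points, 1 marker shape per replicate number), with group mean and SD (bars), in bleomycin KO, bleomycin WT and saline WT. Areg and Osm stand higher in both bleomycin groups, and the 2265 CPM of Igf1 in bleomycin WT 4 sits apart from the other 11 libraries.

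Without saline WT 2 and bleomycin WT 4, all 10 members were above 0 in bleomycin WT against saline WT, with a median of 1.25 beside -0.14 for all genes. In that fit Osm passed the threshold, 1 member of 10 against 0.287% of 18812 genes called higher. For bleomycin KO against saline WT it was Areg that passed, 1 member of 10 against 0.377% of genes called higher, and no member passed between the bleomycin groups, where again 0 genes in the table did (0.255% were higher at an unadjusted p under 0.05, and 0.664% lower). Osm and Areg, the 2 members called in that fit, are described first.

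Osm encodes oncostatin M, an IL-6 family cytokine that macrophages and neutrophils release and that acts on fibroblasts, epithelium and endothelium. The gene lies at chr11:4236420-4241026 (GRCm38, plus strand, ENSMUSG00000058755). It had 1184, 996, 1023 and 616 CPM in bleomycin KO 1 to 4, 1081, 1349, 926 and 728 CPM in bleomycin WT 1 to 4, and 297, 10.8, 489 and 384 CPM in saline WT 1 to 4. Every bleomycin library was above every saline library, also with saline WT 2 (1 count) left out. With all 12 libraries the log2 fold change of bleomycin WT over saline WT was 1.76 ± 0.62 (SE, adjusted p = 0.248), and that of bleomycin KO was 1.66 ± 0.62 (SE, adjusted p = 0.436). In the 10 libraries other than saline WT 2 and bleomycin WT 4, Osm rose in bleomycin WT, to 1119 ± 214 CPM, against 390 ± 96.1 CPM in saline WT (SD, n = 3 each), with 1.50 ± 0.27 as log2 fold change (SE, adjusted p = 0.0478 in edgeR). In bleomycin KO the same 10 libraries gave 1.28 ± 0.25 over saline WT (adjusted p = 0.0558), which misses the threshold. Between bleomycin KO and bleomycin WT the difference in Osm was -0.10 (log2, 95% interval -1.47 to 1.27, 12 libraries).

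The neutrophil marker list, 10 genes, lay the other way from Osm, with all 10 fitted values below 0 in both bleomycin groups against saline WT and 0 called. Its sum was 1226 to 1999 CPM in bleomycin KO, 568 to 1669 CPM in bleomycin WT and 2678 to 30010 CPM in saline WT. The most abundant of these, S100a9, had 417 to 726 CPM in bleomycin KO, 49.9 to 582 CPM in bleomycin WT and 1298 to 12140 CPM in saline WT. The part of neutrophil RNA in the Osm values was not tested. In bulk RNA, fewer cells of a type and less RNA per cell cannot be told apart.

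Areg encodes amphiregulin, an EGF receptor ligand known for its role in epithelial repair. It lies at chr5:91139599-91148432 (GRCm38, plus strand, ENSMUSG00000029378). RefSeq's promoter window for it (GRCm38.p6, chr5:91139349-91139648, plus strand, from 250 bases before the start to 50 after) is shown because Areg was called in bleomycin KO and because its window holds letters of the cyclic AMP response element. The capitals mark matches to TGACG on either strand.
Areg: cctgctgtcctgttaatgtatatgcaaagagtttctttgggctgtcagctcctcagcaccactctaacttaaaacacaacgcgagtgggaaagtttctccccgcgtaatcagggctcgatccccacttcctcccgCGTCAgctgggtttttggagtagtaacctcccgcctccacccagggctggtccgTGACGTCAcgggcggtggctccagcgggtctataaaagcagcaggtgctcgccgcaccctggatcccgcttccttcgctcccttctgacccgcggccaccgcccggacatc
The window held 3 matches, beginning 115, 61 and 58 bases before the start. The last 2 overlap and together spell the full palindromic element TGACGTCA, a motif that was added after the sequence had been seen. TGACG occurs in 20.8% of the 32851 RefSeq mouse windows of this length and TGACGTCA in 1.79%. A match is a description of the letters and not a shown binding site.

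Areg had 130, 150.2, 164 and 149.8 CPM in bleomycin KO 1 to 4. It had 133, 80.0, 75.2 and 161 CPM in bleomycin WT 1 to 4, and 35.5, 64.9, 34.8 and 37.5 CPM in saline WT 1 to 4. All 8 bleomycin libraries were above all 4 saline ones. The highest saline value, in saline WT 2, came from 6 counts. With all 12 libraries the log2 fold change over saline WT was 1.86 ± 0.48 in bleomycin KO (SE, adjusted p = 0.207) and 1.46 ± 0.47 in bleomycin WT (SE, adjusted p = 0.229).

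Without saline WT 2 and bleomycin WT 4, Areg rose in bleomycin KO, to 148 ± 14.1 CPM (SD, n = 4), against 35.9 ± 1.43 CPM in saline WT (SD, n = 3). That is a 4.09-fold difference, or 2.03 ± 0.26 on the log2 scale (SE, adjusted p = 0.0121 in edgeR). With all 12 libraries Areg was also called in bleomycin KO by DESeq2 (adjusted p = 0.00768) and by limma-voom with quality weights (adjusted p = 0.0197). Both methods called far more genes of the whole table in this comparison than edgeR did, as counted in the closing section on processing. In bleomycin WT the mean was 96.1 ± 32.2 CPM (SD, n = 3), and the log2 fold change over saline WT was 1.40 ± 0.26 (SE, adjusted p = 0.0522). The difference between the bleomycin groups was itself tested. It was 0.40 (95% interval -0.61 to 1.41) with 12 libraries and 0.63 ± 0.24 (SE, unadjusted p = 0.0244, adjusted p = 0.9999) with 10, so a difference in Areg between bleomycin KO and bleomycin WT was not called.

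Lymphoid cells also make amphiregulin, and the T, NK and innate lymphoid marker list (10 genes) had all 10 members above 0 in both bleomycin groups against saline WT, with 0 called and medians of 0.89 in bleomycin KO and 0.97 in bleomycin WT. Its sum was 191 to 419 CPM in bleomycin KO, 182 to 892 CPM in bleomycin WT and 21.6 to 255 CPM in saline WT. The part of these cells in the Areg values was not tested. The immediate early genes that tissue dissociation switches on, 13 genes, summed to 11010 to 15930 CPM in bleomycin KO, 9194 to 17810 CPM in bleomycin WT and 5880 to 15070 CPM in saline WT, ranges that overlapped.

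**Figure D2:**
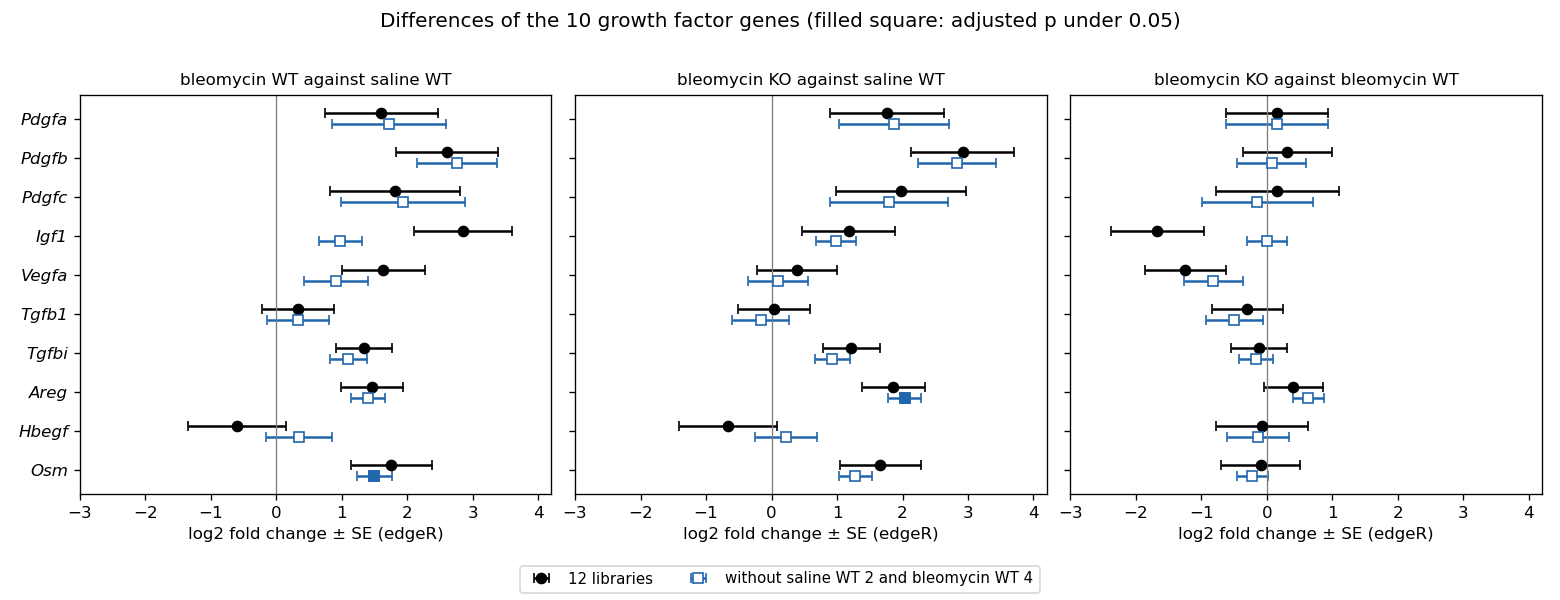
Log2 fold change (x axis, ± SE, edgeR) of each gene in the 3 comparisons, with all 12 libraries (circles) and without saline WT 2 and bleomycin WT 4 (squares, filled where the adjusted p is under 0.05). The filled squares are Osm in bleomycin WT against saline WT and Areg in bleomycin KO against saline WT, and the 2.85 of Igf1 in bleomycin WT against saline WT moves to 0.98 without those libraries.

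The other EGF receptor ligand, Hbegf (chr18:36504927-36515805, GRCm38, minus strand), had no such pattern. It had 24.9, 16.9, 11.5 and 23.0 CPM in bleomycin KO 1 to 4, 28.6, 24.2, 10.3 and 17.2 CPM in bleomycin WT 1 to 4, and 8.51, 97.3, 19.99 and 20.3 CPM in saline WT 1 to 4. The groups overlapped, and the 97.3 CPM of saline WT 2 rest on 9 counts. Over saline WT the log2 fold change was -0.67 ± 0.75 in bleomycin KO and -0.59 ± 0.75 in bleomycin WT (SE), and without saline WT 2 and bleomycin WT 4 both signs turned, to 0.22 in bleomycin KO and 0.35 in bleomycin WT. Neither direction was called. Between the bleomycin groups the 95% interval was -1.66 to 1.51.

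The PDGF genes come next. Pdgfb (chr15:79995874-80014977, GRCm38, minus strand) encodes the B chain, which binds both PDGF receptors. It had 17.3, 22.4, 13.8 and 18.9 CPM in bleomycin KO 1 to 4, 22.2, 21.7, 8.12 and 6.40 CPM in bleomycin WT 1 to 4, and 2.43, 0, 4.00 and 1.01 CPM in saline WT 1 to 4. No saline library reached the lowest bleomycin one, though in saline WT 2 a count of 0 allows up to 32.4 CPM. The differences over saline WT, 2.92 ± 0.79 in bleomycin KO and 2.61 ± 0.78 in bleomycin WT (log2, SE), were the largest fitted ones of the 10 genes in bleomycin KO and the second largest, after Igf1, in bleomycin WT. The adjusted p was 0.233 for bleomycin KO and 0.219 for bleomycin WT with 12 libraries, and 0.0624 for bleomycin KO and 0.0831 for bleomycin WT with 10. DESeq2 on all 12 libraries called both, with an adjusted p of 0.0107 for bleomycin KO and 0.0322 for bleomycin WT. In both comparisons DESeq2 called far more genes of the whole table than edgeR did, as counted in the closing section on processing. The whole saline WT group gave 56 counts for Pdgfb, which limits how well its level there is known.

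Pdgfa (chr5:138976014-138997370, GRCm38, minus strand) encodes the A chain, a ligand of PDGFRA. It had 16.8, 22.2, 24.7 and 12.7 CPM in bleomycin KO 1 to 4, 13.4, 20.1, 18.3 and 16.9 CPM in bleomycin WT 1 to 4, and 6.81, 10.8, 0.205 and 8.55 CPM in saline WT 1 to 4. All bleomycin libraries were above all saline ones, among which saline WT 2 had 1 count and saline WT 3 had 2. Fitted log2 fold changes over saline WT were 1.76 ± 0.87 in bleomycin KO (SE, adjusted p = 0.581) and 1.61 ± 0.87 in bleomycin WT (SE, adjusted p = 0.395).

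Pdgfc (chr3:81036416-81214040, GRCm38, plus strand) encodes a chain that is secreted latent and must be cut by a protease before it binds PDGFRA. It had 51.9, 75.6, 42.7 and 55.8 CPM in bleomycin KO 1 to 4, 52.7, 76.5, 59.7 and 13.2 CPM in bleomycin WT 1 to 4, and 0, 0, 25.7 and 22.7 CPM in saline WT 1 to 4. Bleomycin KO stood above saline WT in every library, whereas bleomycin WT 4 lay among the saline values. The 0 in saline WT 1 allows up to 0.730 CPM (3 counts), so saline WT 1 was below saline WT 3 and 4 beyond counting error. The log2 fold change over saline WT was 1.98 ± 0.995 in bleomycin KO (SE, adjusted p = 0.592) and 1.82 ± 0.99 in bleomycin WT (SE, adjusted p = 0.401).

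Set against bleomycin WT, bleomycin KO had a log2 fold change of 0.15 for Pdgfa (95% interval -1.61 to 1.91), 0.31 for Pdgfb (-1.23 to 1.85) and 0.16 for Pdgfc (-1.95 to 2.27). These intervals leave room for differences of more than 2-fold in either direction.

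Beside these chains, the endothelial marker list, for cells known to make PDGF-B, summed to 81.8 to 181 CPM in bleomycin KO, 96.2 to 807 CPM in bleomycin WT and 108 to 457 CPM in saline WT. The fibroblast and smooth muscle list summed to 171 to 545 CPM in bleomycin KO, 270 to 347 CPM in bleomycin WT and 108 to 462 CPM in saline WT. Both lists had 10 genes, 0 called in any comparison, and overlapping sums. Against saline WT, all 10 endothelial genes were below 0 in bleomycin KO (median -1.49) and 7 in bleomycin WT (median -1.66). For the fibroblast and smooth muscle genes these counts were 4 in bleomycin KO and 5 in bleomycin WT. Other PDGF genes were described from a list of 8 with receptors and activating proteases, of which 7 were tested and none passed. The most abundant was Plaur, the urokinase receptor, with 801 ± 151 CPM in bleomycin KO, 1362 ± 1132 in bleomycin WT and 854 ± 771 in saline WT. Its log2 fold change in bleomycin WT against saline WT was 0.66 with 12 libraries and -0.50 with 10, and in bleomycin KO against bleomycin WT it was -0.77 with 12 and 0.007 with 10. Next came Nrp1, a co-receptor, with 199 ± 45.7 CPM in bleomycin KO, 299 ± 168 in bleomycin WT and 150.0 ± 52.1 in saline WT (SD, n = 4 each). The log2 fold change of Nrp1 in bleomycin WT against saline WT was 0.97 with 12 libraries and 0.31 with 10.

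Igf1 encodes insulin-like growth factor 1, a survival and growth signal for fibroblasts and epithelium that macrophages are known to secrete. It lies at chr10:87858265-87937042 (GRCm38, plus strand). It had 185, 254, 248.6 and 239 CPM in bleomycin KO 1 to 4, 219, 205, 275 and 2265 CPM in bleomycin WT 1 to 4, and 167, 54.1, 63.8 and 115 CPM in saline WT 1 to 4. Bleomycin WT 4 stood far above every other library, and the other 7 bleomycin libraries lay within 185 to 275 CPM, above all saline libraries. The log2 fold change of bleomycin WT over saline WT was 2.85 ± 0.75 (SE, adjusted p = 0.201), and the adjusted p was 0.00176 when no filter on low counts was applied. Without bleomycin WT 4 it was 1.27 ± 0.40 (adjusted p = 0.263), and with saline WT 2 left out as well 0.98 ± 0.33 (adjusted p = 0.230). Bleomycin KO was 1.18 ± 0.71 above saline WT (log2, SE, adjusted p = 0.674).

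For Igf1 in bleomycin KO against bleomycin WT, the log2 fold change was -1.68 ± 0.71 (SE, 95% interval -3.28 to -0.07, unadjusted p = 0.0312, adjusted p = 0.9998). It was -0.02 without bleomycin WT 4 and 0.003 ± 0.30 with saline WT 2 left out too, so this difference, the only one among the 10 genes with an unadjusted p under 0.05 in the fit of 12 libraries, rested on 1 library. The same library was high in several genes outside the macrophage list: the endothelial genes Calcrl and Ptprb had 477 and 221 CPM there, while the defining endothelial genes Cldn5, Tek and Emcn were at 0 and Pecam1 was at 3.20 CPM. Genes of the lymphoid list went both ways there. Gata3 had 219 CPM in bleomycin WT 4 and 7.39 to 15.6 CPM in bleomycin WT 1 to 3. Gzma had 361 CPM in bleomycin WT 4 and 2.66 to 52.8 CPM in the other 3. Trac (61.8 CPM), Cd3d (54.7 CPM), Nkg7 (102 CPM) and Klrb1c (29.5 CPM) were also above bleomycin WT 1 to 3. Cd3g (60.8 CPM) lay within their range. The T cell gene Cd3e instead had 1.60 CPM in bleomycin WT 4 and 35.2 to 46.0 CPM in the other 3. Il2ra had 1.07 CPM in bleomycin WT 4 and 15.2 to 18.6 CPM in the other 3, and the NK cell gene Ncr1 was at 0 in bleomycin WT 4. The part of other cells in its Igf1 value was not tested.

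RefSeq's window for Igf1 (GRCm38.p6, chr10:87860861-87861160, plus strand) lies within the deposited span of the gene, downstream of its first base. It is shown because, of the 7 members whose windows were searched, this was the one with a match to TGANTCA. That pattern is a loose form of the AP-1 motif that takes any base in the middle. The match is in capitals and begins 37 bases before the start. It reads TGAATCA, with A in the middle where the AP-1 consensus has C or G.
Igf1: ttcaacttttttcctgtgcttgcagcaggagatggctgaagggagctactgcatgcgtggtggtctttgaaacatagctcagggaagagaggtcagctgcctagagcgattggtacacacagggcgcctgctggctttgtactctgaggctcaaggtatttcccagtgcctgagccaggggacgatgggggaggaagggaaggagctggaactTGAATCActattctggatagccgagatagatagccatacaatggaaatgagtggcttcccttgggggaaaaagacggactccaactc
Matches to TGANTCA, with any middle base, occur in 7.81% of all windows. None of the 9 windows of these 7 members held TTCNNNNGAA, a spacing bound by STAT6 downstream of the IL-4 receptor, which is in 6.95% of all windows, nor CACGTG, which is in 7.15%.

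Among 14 genes of the IGF list, 11 were tested and none passed in any comparison. The most abundant was Irs2, a docking protein of the IGF1 and insulin receptors, with 136 ± 72.5 CPM in bleomycin KO, 177 ± 58.0 in bleomycin WT and 92.1 ± 20.7 in saline WT. Igfbp4, which binds IGF1, had 89.9 ± 11.9 CPM in bleomycin KO, 78.3 ± 19.3 in bleomycin WT and 149 ± 109 in saline WT (SD, n = 4 each). Neither was called, with an adjusted p against saline WT of 0.799 in bleomycin KO and 0.383 in bleomycin WT for Irs2, and of 0.729 in bleomycin KO and 0.411 in bleomycin WT for Igfbp4.

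Vegfa encodes vascular endothelial growth factor A, which acts on endothelium and lies at chr17:46016993-46032369 (GRCm38, minus strand). It had 151, 64.6, 115 and 40.2 CPM in bleomycin KO 1 to 4, 104, 266, 122 and 389 CPM in bleomycin WT 1 to 4, and 107, 10.8, 75.9 and 73.3 CPM in saline WT 1 to 4. All groups overlapped, and bleomycin WT 4 was again the highest library. Bleomycin WT had a log2 fold change over saline WT of 1.64 ± 0.63 (SE, unadjusted p = 0.0196, adjusted p = 0.277). It was 0.91 ± 0.49 (SE, unadjusted p = 0.0916, adjusted p = 0.426) without saline WT 2 and bleomycin WT 4. Bleomycin KO had 0.39 ± 0.62 over saline WT (SE, adjusted p = 0.893) with 12 libraries and 0.09 with 10. Between bleomycin KO and bleomycin WT it was -1.25 (95% interval -2.65 to 0.15, unadjusted p = 0.0611, adjusted p = 0.9998). In the 10 libraries left after saline WT 2 and bleomycin WT 4 were dropped it was -0.82.

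Lung epithelium also makes VEGF-A, and the epithelial marker list (10 genes, 9 tested, 0 called) summed to 263 to 740 CPM in bleomycin KO, 340 to 1004 CPM in bleomycin WT and 1562 to 2418 CPM in saline WT. Its most abundant gene, Sftpc, the surfactant protein of alveolar type II cells, had 55.6 to 278 CPM in bleomycin KO, 61.2 to 623 CPM in bleomycin WT and 880 to 1506 CPM in saline WT. The sum is mostly Sftpc and Scgb1a1, and not every member lay the same way: against saline WT, 2 of 9 were above 0 in bleomycin KO and 3 of 9 in bleomycin WT. Cdh1, the epithelial cadherin, had 35.4 to 95.1 CPM in bleomycin KO, 37.5 to 138 CPM in bleomycin WT and 0 to 45.1 CPM in saline WT. Their part in the Vegfa values was not tested. In the VEGF and hypoxia list 16 of 16 genes were tested and none passed. Hif1a, the hypoxia-regulated factor that activates Vegfa, had 238 ± 50.8 CPM in bleomycin KO, 256 ± 122 in bleomycin WT and 104 ± 82.1 in saline WT. The co-receptor Nrp2 had 114 ± 30.8 CPM in bleomycin KO, 144 ± 85.5 in bleomycin WT and 46.6 ± 44.6 in saline WT (SD, n = 4 each).

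Tgfbi encodes an extracellular matrix protein that TGF-beta induces and that binds integrins. It lies at chr13:56609523-56639562 (GRCm38, plus strand, ENSMUSG00000035493) and was the most abundant of the 10 genes. Its RefSeq window (GRCm38.p6, chr13:56609336-56609635, plus strand) is shown because Tgfbi is a TGF-beta target, with matches to CAGAC, the SMAD-binding element, on either strand in capitals.
Tgfbi: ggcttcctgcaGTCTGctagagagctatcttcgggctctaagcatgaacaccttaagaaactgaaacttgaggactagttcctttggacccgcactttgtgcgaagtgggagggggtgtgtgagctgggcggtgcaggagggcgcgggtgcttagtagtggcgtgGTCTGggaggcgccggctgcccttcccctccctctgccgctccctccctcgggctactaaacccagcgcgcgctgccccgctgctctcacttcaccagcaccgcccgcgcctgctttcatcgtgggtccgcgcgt
The 2 matches begin 239 and 85 bases before the window's own start, at 56609586. That start is the first base of the deposited gene and lies downstream of the GENCODE first base given above. The motif is short and occurs in 49.6% of all windows.

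Tgfbi had 1983, 1571, 1244 and 1378 CPM in bleomycin KO 1 to 4, 1149, 2531, 1579 and 1482 CPM in bleomycin WT 1 to 4, and 652, 227, 936 and 826 CPM in saline WT 1 to 4. All 8 bleomycin libraries were above all 4 saline ones. The log2 fold change over saline WT was 1.22 ± 0.43 in bleomycin KO (SE, adjusted p = 0.405) and 1.34 ± 0.43 in bleomycin WT (SE, adjusted p = 0.229). With 10 libraries it was 0.93 in bleomycin KO (adjusted p = 0.143) and 1.10 in bleomycin WT (adjusted p = 0.1302). Between bleomycin KO and bleomycin WT the 95% interval was -1.09 to 0.84.

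Tgfb1 itself (chr7:25687002-25705077, GRCm38, plus strand) did not separate the groups. It had 191, 91.4, 79.4 and 74.6 CPM in bleomycin KO 1 to 4, 90.9, 278, 95.6 and 72.7 CPM in bleomycin WT 1 to 4, and 96.6, 54.1, 136 and 129 CPM in saline WT 1 to 4. The groups overlapped, with 1 high library in each bleomycin group. The log2 fold change over saline WT was 0.03 ± 0.55 in bleomycin KO (SE, adjusted p = 0.994), where it turned below 0 under 5 of the 7 other settings that do not leave out single libraries in turn, and 0.33 ± 0.55 in bleomycin WT (SE, adjusted p = 0.822). In bleomycin KO against bleomycin WT it was -0.30 (95% interval -1.53 to 0.93).

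The list of TGF-beta ligands, latency proteins, activators, receptors and feedback genes had 28 genes, all tested, of which 17 were above 0 in bleomycin KO and 16 in bleomycin WT against saline WT, with 0 called. The most abundant was Thbs1, thrombospondin 1, an activator of latent TGF-beta, with 959 ± 791 CPM in bleomycin KO, 1787 ± 1330 in bleomycin WT and 928 ± 1198 in saline WT. Nrros, which holds latent TGF-beta 1 on myeloid cells, had 712 ± 105 CPM in bleomycin KO, 1462 ± 1561 in bleomycin WT and 622 ± 380 in saline WT (SD, n = 4 each). For Nrros the sign in bleomycin WT against saline WT turned with the libraries, 1.22 with 12 and -0.27 with 10, and so did those in bleomycin KO against bleomycin WT (-1.04 with 12, 0.06 with 10) and in bleomycin KO against saline WT (0.18 with 12, -0.20 with 10). For Thbs1 in bleomycin KO against saline WT it was 0.04 with 12 and -0.32 with 10. Mmp14, a membrane protease that can release latent TGF-beta, was the member called when saline WT 2 and bleomycin WT 4 were left out. Its log2 fold change in those 10 libraries was 2.64 in bleomycin KO (edgeR adjusted p = 0.0413) and 3.09 in bleomycin WT (edgeR adjusted p = 0.0310) over saline WT. With all 12 libraries Mmp14 had 265 ± 111 CPM in bleomycin KO, 274 ± 246 in bleomycin WT and 31.3 ± 23.7 in saline WT (SD, n = 4 each), and against saline WT the adjusted p was 0.310 for bleomycin KO and 0.219 for bleomycin WT. Of 10 integrin and matrix partners of Tgfbi none passed. The most abundant was Fn1, fibronectin, with 1726 ± 1553 CPM in bleomycin KO, 2620 ± 3334 in bleomycin WT and 313 ± 98.2 in saline WT. The integrin subunit Itgb2 had 1316 ± 245 CPM in bleomycin KO, 1214 ± 742 in bleomycin WT and 976 ± 642 in saline WT (SD, n = 4 each).

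The sheddases that release Areg and Hbegf were the most abundant genes of the EGF family list (17 genes, 14 tested, 0 called). Adam17 had 301 ± 49.3 CPM in bleomycin KO, 342 ± 105 in bleomycin WT and 124 ± 84.4 in saline WT, with log2 fold changes over saline WT of 1.22 in bleomycin KO (adjusted p = 0.530) and 1.40 in bleomycin WT (adjusted p = 0.279). Adam10 had 203 ± 78.0 CPM in bleomycin KO, 330.0 ± 125 in bleomycin WT and 94.4 ± 65.3 in saline WT (SD, n = 4 each), with log2 fold changes of 1.03 in bleomycin KO (adjusted p = 0.683) and 1.73 in bleomycin WT (adjusted p = 0.268). In the list of OSM and IL-6 family genes (14 genes, 12 tested, 0 called) Socs3, a feedback inhibitor that this family induces, had 566 ± 168 CPM in bleomycin KO, 518 ± 185 in bleomycin WT and 183 ± 65.4 in saline WT (SD, n = 4 each). In bleomycin KO against saline WT it had an adjusted p of 0.233 with 12 libraries, and with 10 it was called, at a log2 fold change of 1.41 (edgeR adjusted p = 0.0473). In bleomycin WT the same 10 libraries gave 1.45 over saline WT (edgeR adjusted p = 0.0543), and with 12 the adjusted p was 0.219. Jak1, the kinase bound to the receptors, had 445 ± 80.2 CPM in bleomycin KO, 443 ± 122 in bleomycin WT and 423 ± 129 in saline WT.

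The list of 20 other growth factors reported in macrophages (19 tested) held the 1 called gene of all 8 lists in the fit of 12 libraries. This was Spp1, osteopontin, a secreted matrix-binding protein, with 11680 ± 1527 CPM in bleomycin KO, 13480 ± 10940 in bleomycin WT and 512 ± 448 in saline WT (SD, n = 4 each). Its log2 fold change over saline WT was 4.50 ± 0.69 in bleomycin KO (SE, edgeR adjusted p = 0.0437) and 4.71 ± 0.70 in bleomycin WT (SE, edgeR adjusted p = 0.0433). The other abundant gene of the list, Il1b, which encodes interleukin 1 beta, had 3775 ± 454 CPM in bleomycin KO, 2672 ± 1106 in bleomycin WT and 2853 ± 1610 in saline WT. Spp1 stood above every one of the 10 growth factor genes in mean CPM in both bleomycin groups. None of the 8 lists had a called gene between bleomycin KO and bleomycin WT.

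**Figure D3:**
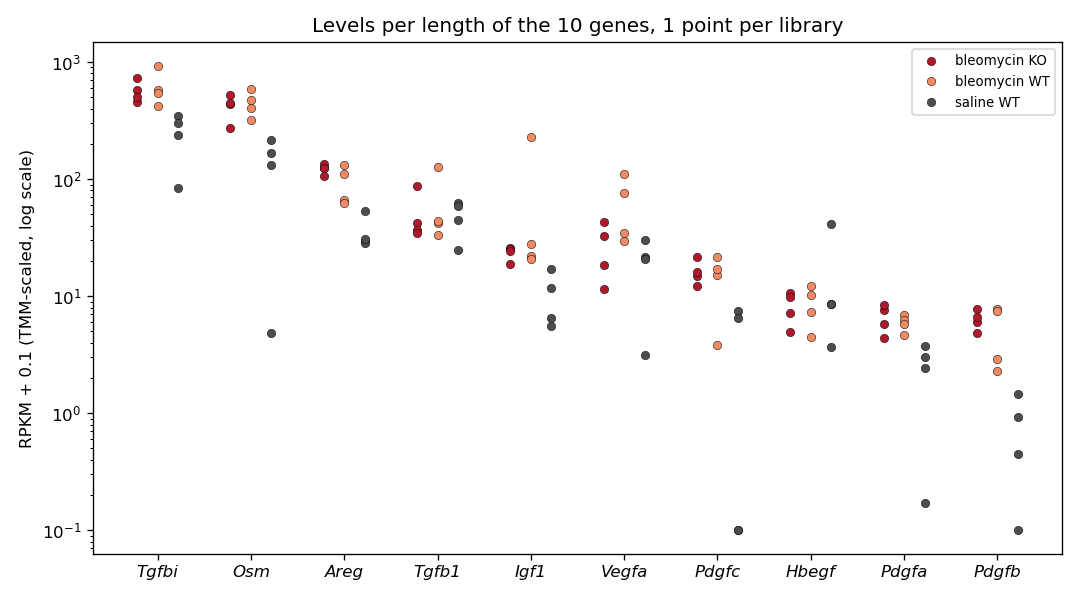
Level of each gene per exonic length (RPKM with a small offset added, log axis, a point per library) in bleomycin KO, bleomycin WT and saline WT. By group mean Tgfbi and Osm lead in every group, and the PDGF chains and Hbegf lie at the low end in both bleomycin groups.

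Per exonic length, Tgfbi and Osm dominated the set. In bleomycin KO the mean RPKM (CPM divided by exonic length in kilobases) was 569 for Tgfbi and 420 for Osm, 122 for Areg, 50.1 for Tgfb1, 26.3 for Vegfa, 23.4 for Igf1, 16.1 for Pdgfc, 8.04 for Hbegf, 6.49 for Pdgfa and 6.20 for Pdgfb. Here the ranges of neighbours were apart between Osm and Areg, between Areg and Tgfb1 and between Pdgfc and Hbegf, and all other neighbours overlapped. In bleomycin WT the means were 621 for Tgfbi, 449 for Osm, 92.5 for Areg, 74.8 for Igf1, 62.5 for Vegfa, 61.7 for Tgfb1, 14.4 for Pdgfc, 8.46 for Hbegf, 5.84 for Pdgfa and 5.001 for Pdgfb. Neighbours were apart there between Osm and Areg and between Tgfb1 and Pdgfc, and the place of Igf1 came from bleomycin WT 4, at 229 RPKM against 20.7 to 27.8 RPKM in the other 3 libraries. In saline WT they were 243 for Tgfbi, 130 for Osm, 47.8 for Tgfb1, 35.5 for Areg, 18.9 for Vegfa, 15.4 for Hbegf, 10.1 for Igf1, 3.44 for Pdgfc, 2.24 for Pdgfa and 0.638 for Pdgfb, and every pair of neighbours overlapped.

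Tgfbi was first per length in 11 of the 12 libraries, and Osm in bleomycin WT 1. Together they held 76.4 to 80.5% of the summed CPM of the 10 genes in bleomycin KO, 42.9 to 80.0% in bleomycin WT, lowest in bleomycin WT 4, and 44.9 to 79.8% in saline WT, lowest in saline WT 2.

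The genes whose levels were most like a member were ranked by Pearson's r of log2(CPM + 1) over the 11 libraries other than saline WT 2, among 7246 genes with a mean of at least 20 CPM. The groups and the libraries are shared by every pair, so r is a description. For Areg they were Clec4n, a fungal lectin receptor, with r of 0.956, Il1rn, the interleukin 1 receptor antagonist, with 0.938, and Il7r, the interleukin 7 receptor, with 0.929. For Osm they were Lhfpl2 with 0.946, Pald1 with 0.944 and Malt1, a protease of NF-kappaB signalling, with 0.941. For Tgfbi they included Coro2a with 0.955 and Extl3 with 0.952, and for Pdgfb they were Siah2 with 0.936, the lysosomal protease Ctsd with 0.916 and the Fc receptor Fcgr2b with 0.908. The first gene was Cdk4 for Pdgfa (0.937), Kcnk13 for Pdgfc (0.993), Metap2 for Igf1 (0.982, and 0.921 without bleomycin WT 4), Stard7 for Vegfa (0.924), Wipf1 for Tgfb1 (0.956) and Ptger4, a prostaglandin E2 receptor, for Hbegf (0.848).

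Among the 10 genes themselves, Tgfbi and Osm were the most alike of 45 pairs over the same 11 libraries (r of 0.876, and 0.583 after group means were removed). Which pair led depended on the libraries and groups: without bleomycin WT 4 it was Pdgfa and Igf1 (0.919, against 0.560 with it), ahead of Pdgfb and Areg (0.887) and of Tgfbi and Osm (0.883), and after group means were removed it was Tgfb1 and Tgfbi (0.885). The pair least alike was Igf1 and Tgfb1 (r of -0.434). Tgfb1 and Areg had r of -0.338, and -0.617 after group means were removed.

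**Figure D4:**
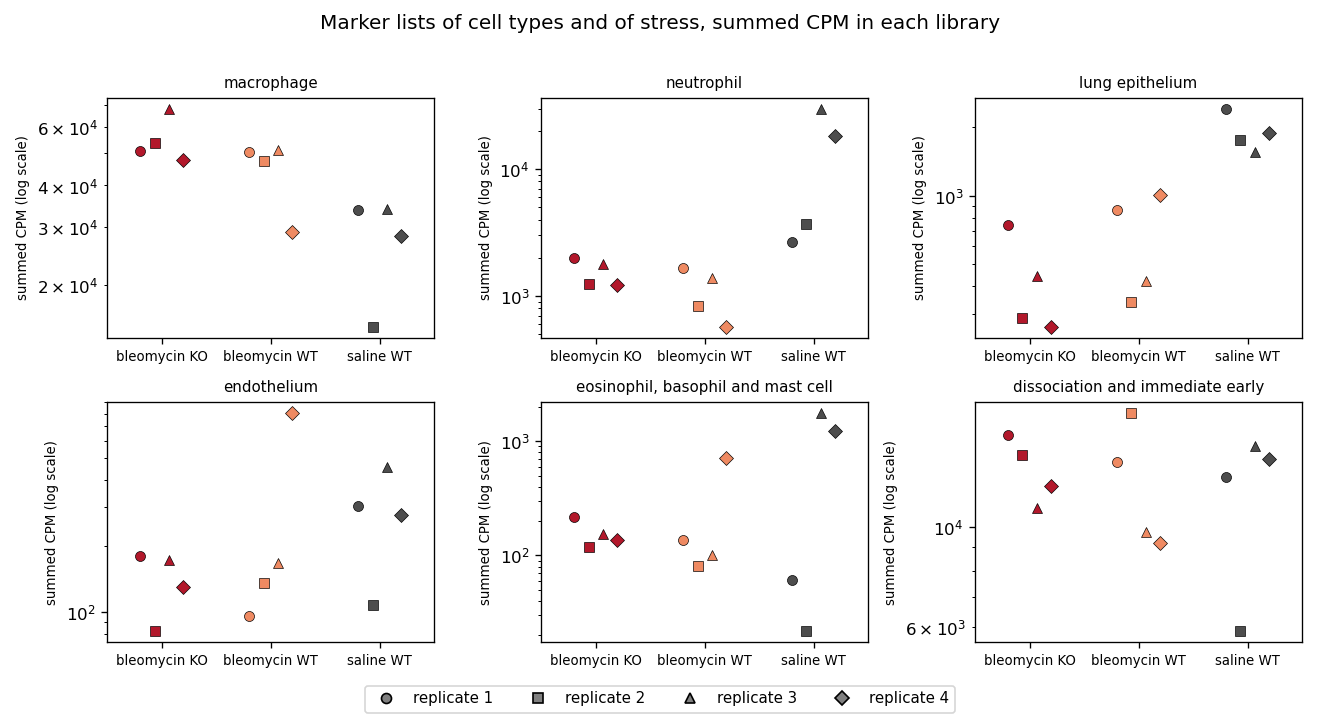
Summed CPM (log axis) of marker lists for cell types and for immediate early genes in each library of bleomycin KO, bleomycin WT and saline WT. The neutrophil sums lie at 1226 to 1999 in bleomycin KO and 568 to 1669 in bleomycin WT, below the 2678 to 30010 of saline WT, and the epithelial sums are also highest in saline WT.

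The remaining marker lists are given for all members. Alveolar macrophage genes, 9, summed to 1509 to 1962 CPM in bleomycin KO, 1247 to 2728 CPM in bleomycin WT and 1654 to 4336 CPM in saline WT, and monocyte genes, 10, to 1736 to 2602 CPM in bleomycin KO, 1428 to 2609 in bleomycin WT and 1005 to 5562 in saline WT. Against saline WT, 8 of the 9 alveolar macrophage genes were below 0 in bleomycin KO (median -0.66) and 7 in bleomycin WT (median -0.99). Of the 10 monocyte genes, 9 were below 0 in each, with medians of -1.20 in bleomycin KO and -1.73 in bleomycin WT. Eosinophil, basophil and mast cell genes, 10, summed to 119 to 216 CPM in bleomycin KO, 80.3 to 718 CPM in bleomycin WT and 21.6 to 1777 CPM in saline WT, nearly all from Hdc, with the basophil gene Mcpt8 at 0 in saline WT. Sums of B cell (6), dendritic cell (7) and platelet and erythroid genes (8) overlapped between all groups. None of the 13 marker lists had a called gene in any comparison (edgeR, 12 libraries), and their part in the results above was not tested.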

How the data were processed

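Counts per Ensembl gene, whole numbers made and deposited by the authors, were used for all 12 libraries. A deposited gene table gave each gene's symbol and exonic size. Per the labels' protocols, cDNA was made from 2 ng of RNA with a SMART-Seq v4 kit, and libraries from 150 pg of cDNA with Nextera XT. Strand is not marked by these kits, so antisense reads count with the gene they overlap. The submitters' processing notes name GSNAP, limma and Partek, and the builds GRCm38 and mm10, without versions. The sources used here do not say how multiply mapped reads were counted. What the series' design text describes is a culture of epithelial cells, and it was not used.

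From the counts, edgeR 4.0.16 in R 4.3.3 fitted all 12 libraries together by group, without covariates: 16679 genes passed filterByExpr, libraries were scaled by TMM, and robust quasi-likelihood tests were followed by Benjamini-Hochberg adjustment over all genes at 0.05. Standard errors were taken as the size of the log2 fold change over the root of its F statistic, and 95% intervals use 9 degrees of freedom. CPM and RPKM used the TMM-scaled library sizes. A count of 0 was given the limit of 3 counts per library, which covers counting error only. The fit was checked on simulated counts. Coordinates come from GENCODE vM21 (GRCm38), and promoter windows from RefSeq GRCm38.p6. Member windows on chromosome 18, where Hbegf lies, were left out of the search by its settings. Pdgfb and Osm had no window in the set used, so windows of 7 of the 10 members were searched.

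The members and lists were chosen with earlier results of these data known. Named genes were Il4ra, the 10 members, the 2 most abundant tested genes of each of 8 pathway lists and any called there, the 2 most abundant of each of 13 marker lists, and the 3 genes most like each member. Other genes named (Mmp14, Cx3cr1, Csf1r, Ptprb, Gata3, Cd3e, Cd3d, Cd3g, Trac, Klrb1c, Il2ra, Ncr1, Cdh1, Mcpt8 and the endothelial genes at 0) were chosen after their values were seen. Not every gene the rule names is printed. Alternatives were RLE scaling, no filter on low counts, DESeq2 1.42.0, limma-voom 3.58.1 with quality weights, a replicate block, the 8 libraries of a comparison alone, each library left out in turn, and saline WT 2 and bleomycin WT 4 left out. All pairs of libraries within a group differed by more than sampling noise.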

Additional observations from a re-analysis of the deposited data

Results flagged for a closer look

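In 5 of 33 gene and group combinations (the 10 genes and Il4ra in 3 groups of 4 libraries), 1 library lay so far from the nearest other that its gap exceeded, as a share of the group's range, Dixon's 95% critical value. Chance alone flags about 1 in 20 groups. Igf1 in bleomycin WT had the highest share, 0.966, with 2265 CPM in bleomycin WT 4 and 275 CPM in the nearest library. Tgfb1 was high in bleomycin KO 1 (191 CPM, nearest 91.4 CPM, share 0.856) and in bleomycin WT 2 (278 CPM, nearest 95.6 CPM, share 0.888). In saline WT, Areg was high in saline WT 2 (64.9 CPM, nearest 37.5 CPM, share 0.908), and so was Hbegf (97.3 CPM, nearest 20.3 CPM, share 0.868). Those values of saline WT 2 rest on 6 and 9 counts.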

How the results depend on the processing

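The number of genes called over all genes tested depended on the setting. For bleomycin KO against saline WT, 3 genes were called, and 1 with RLE scaling, 694 without the filter (68 higher, 626 lower), 685 with DESeq2, 232 with limma-voom, 1 with the replicate block, 1 with 8 libraries alone, 121 without saline WT 2 and bleomycin WT 4, and 0 to 18 with 1 library left out in turn. For bleomycin WT against saline WT, 4 were called, and 1, 780 (358 higher, 422 lower), 616, 319, 2, 0 and 81 under the same settings, and 1 to 11 with 1 library left out. For bleomycin KO against bleomycin WT, 0 were called with edgeR and the filter, 243 without it (242 lower), and 1 with DESeq2. RLE scaling moved the median of all genes to -0.12 in bleomycin KO and -0.10 in bleomycin WT against saline WT, against 0.04 and 0.08 with TMM. Of the members, bleomycin WT against saline WT had 1 called without the filter (Igf1), 1 with DESeq2 (Pdgfb) and 1 without saline WT 2 and bleomycin WT 4 (Osm). Bleomycin KO against saline WT had 2 with DESeq2 (Pdgfb, Areg), 1 with limma-voom (Areg) and 1 without those libraries (Areg). With 1 library left out in turn, 0 members were called in any comparison, and none was called between the bleomycin groups under any setting.

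Signs turned only in uncalled differences, and the cause was not tested. Against saline WT, Tgfb1 in bleomycin KO was -0.15 with RLE, -0.16 with DESeq2, -0.30 with limma-voom, -0.085 with the replicate block and -0.16 without saline WT 2 and bleomycin WT 4, and in bleomycin WT -0.22 with limma-voom. Without those libraries Hbegf was 0.22 in bleomycin KO and 0.35 in bleomycin WT. Between bleomycin KO and bleomycin WT, limma-voom gave -0.12 for Pdgfc, 0.051 for Tgfbi and 0.009 for Hbegf, the replicate block 0.006 for Hbegf, and leaving out saline WT 2 and bleomycin WT 4 -0.14 for Pdgfc and 0.003 for Igf1. Over all 19 alternatives, those with 1 library left out included, the ranges there were -0.29 to 0.14 for Hbegf and -0.73 to 0.35 for Tgfb1. They were -0.28 to 0.15 for Tgfbi, -0.24 to 0.075 for Osm, -0.38 to 0.34 for Il4ra and -0.17 to 0.43 for Pdgfc. Against saline WT the ranges over the same 19 alternatives were -0.35 to 0.30 for Tgfb1 and -1.002 to 0.31 for Hbegf in bleomycin KO. In bleomycin WT they were -0.27 to 0.63 for Tgfb1 and -0.93 to 0.38 for Hbegf.

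Replicate numbers did not pair the libraries: deviations of same-numbered libraries from their group means had r of -0.18 to 0.05 (median -0.01, 12 pairs), against -0.23 to 0.42 for different numbers. Depth limits the saline values most, since 1 count in saline WT 2 stood for 10.8 CPM.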
